A study of Arabidopsis thaliana with 12 samples.

Results

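The comparison described here set inflorescence-like shoot apices at day 0 against rosette leaves of Arabidopsis thaliana, gene by gene. Its members are the genes that reached at least 5 FPKM (fragments relative to transcript length and to all mapped fragments) in apices, in leaves or in both, after the rows of a repeated gene identifier had been summed. They number 17271 of the 33559 genes in the table. Of these, 13062 reached 5 FPKM in both groups, 1992 in apices alone and 2217 in leaves alone. The values that chose the members are the levels in these same groups, so the number that passed in each group describes the rule and is no finding.

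Polyadenylated RNA was sequenced with strand information in 3 libraries for each of 4 groups, all in the Landsberg erecta (Ler) background and grown in long days. The leaf group was rosette leaves taken from flowering plants labelled wild type (Ler). The apex group was the cauliflower-like tissue of the main inflorescence of ap1 cal 35S::AP1-GR plants (alleles ap1-1 and cal-1), dissected to keep leaf and pedicel tissue low and harvested at day 0 without treatment. The other groups, printed only for context, were such apices 2 days after treatment with 10 µM dexamethasone and wild-type main inflorescences from which the older flowers had been removed. In the ap1 cal double mutant, meristems that would become flowers keep producing further inflorescence-like meristems. The 35S promoter drives the AP1-GR fusion protein in nearly all cells of the plant, and the fusion stays inactive until a glucocorticoid such as dexamethasone is given. The apex and leaf groups therefore differ in organ, in genotype and in the presence of the transgene, and these cannot be told apart in this comparison.

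A shoot apex consists of dividing cells: a reservoir of stem cells held by homeobox transcription factors, a flank on which organs are initiated, and boundaries that keep the new organs apart. A mature rosette leaf has left division behind, its cells have enlarged and often copied their DNA without dividing, and most of its messenger RNA serves photosynthesis, metabolism and defence. A comparison of both organs thus spans the change from proliferation to differentiated function.

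The deposited table holds a single value per gene and group, with the libraries of a group already merged, so there is no replicate check, no standard deviation and no test for any difference below. A gene was called higher or lower in apices when log2 of (FPKM + 1) differed by at least 1 between the groups. Members that reached 5 FPKM in apices alone could not be called lower. Those that did so in leaves alone could not be called higher. Folds are ratios of the FPKM values and are not given against a value listed at 0. By this rule, 3622 members (21.0%) were higher in apices, 5116 (29.6%) were lower and the rest passed in neither direction. Calls in either direction made up 50.6% of members, which is the background against which the counts in each gene list stand. The median log2 difference over all members was -0.16, with 5% of members below -3.78 and 5% above 2.74. Differences of at least 16-fold on that scale were counted for 297 genes higher and 732 lower. Among members with at least 5 FPKM in both groups, 1909 (14.6%) were higher and 3080 (23.6%) lower.

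The scale between the groups bears on these shares. Summed over all genes, FPKM in leaves exceeded FPKM in apices by 0.51 on the log2 scale. Giving both groups the same sum moves the median member from -0.16 to 0.36 and the share of calls that are higher in apices from 41.5% to 59.3%. Rescaling by the upper quartile gives a median of 0.12 and a share of 51.3%, and rescaling by the trimmed mean of log ratios gives a median of 0.04 and a share of 48.3%. The 3 rescalings raise apex FPKM relative to leaf FPKM by 0.51, 0.28 and 0.20 on the log2 scale. No list member and no gene with an extreme difference changed the direction of its call under them. The steps between the lowest values show what 1 fragment is worth in each group. At the threshold of 5 FPKM a transcript of median length would by these steps rest on about 535 fragments in leaves and 843 in apices, a counting error of 4.32% and 3.44%. These depths are approximate and cover counting error only, since the spread between libraries is unknown.

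Members near the threshold of 5 FPKM show what the rule admitted. AT3G18310, with 5.01 FPKM in apices and 4.65 FPKM in leaves, lay just inside, and QWRF9, with 4.98 FPKM in apices and 2.64 FPKM in leaves, lay just outside. On the leaf side AT2G30840, with 5.01 FPKM in leaves and 0.00629 FPKM in apices, lay just inside, and AT2G41330, with 4.99 FPKM in leaves and 1.86 FPKM in apices, just outside.

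**Figure D1:**
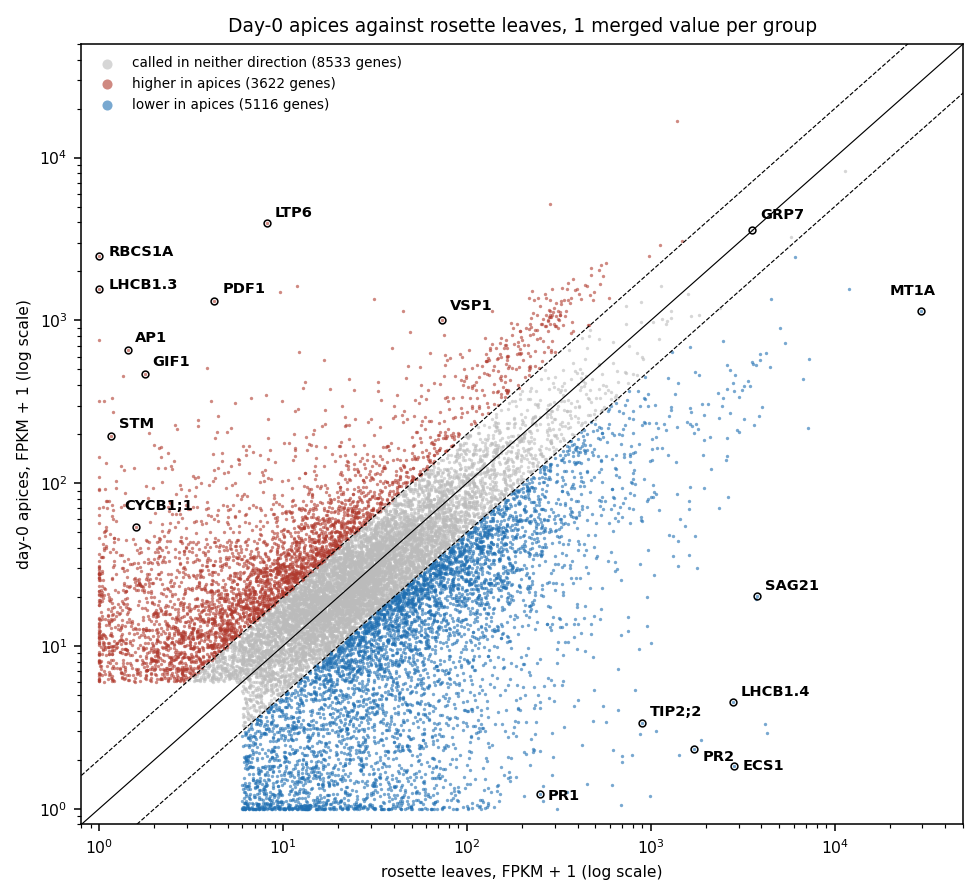
FPKM + 1 of each of the 17271 members in rosette leaves (horizontal, log scale) and in day-0 apices (vertical, log scale), 1 merged value per group. Red points are the 3622 genes higher in apices and blue points the 5116 lower; the solid line marks equal values, the dashed lines 2-fold, and STM, AP1, GIF1 and PDF1 stand far above it while PR1, PR2 and ECS1 stand far below.

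Shoot meristem genes were mostly higher in apices. Of 15 members on the list of shoot meristem maintenance, 10 were higher in apices, none was lower, and the median log2 difference was 2.89. STM (AT1G62360), the KNOX homeobox gene that keeps meristem cells undifferentiated, had 195 FPKM in apices and 0.159 FPKM in leaves, a 1228-fold ratio. KNAT1 (AT4G08150), a related KNOX gene also called BREVIPEDICELLUS, had 103 FPKM in apices and 0.236 FPKM in leaves. KNAT2 (AT1G70510) had 44.1 FPKM in apices and 0.273 FPKM in leaves. These class I KNOX genes were close to 0 in leaves and well expressed in apices. WUS (AT2G17950), which specifies the stem-cell niche, was listed at 0 in leaves and had 6.91 FPKM in apices. CLV3 (AT2G27250), the peptide signal made by the stem cells themselves, had 8.8 FPKM in apices and 0.0772 FPKM in leaves. Both are expressed in few cells of a meristem, and in bulk tissue fewer cells of a type and less RNA per cell cannot be told apart. The receptor gene CLV1 (AT1G75820) was not called, with 26.8 FPKM in apices and 27.6 FPKM in leaves. The class II KNOX genes, which act in differentiating tissue, had the opposite direction: 3 of 3 members were lower in apices, though 1 was with the same sum and 2 were with the upper quartile or the trimmed mean. KNAT4 (AT5G11060) was the clearest, with 15.7 FPKM in apices and 154 FPKM in leaves.

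Organ boundary genes were higher without exception among the members: 11 of 11, with a median of 3.78. CUC1 (AT3G15170), a NAC transcription factor that separates neighbouring organs, had 19.7 FPKM in apices and 0.0216 FPKM in leaves. Its partner CUC3 (AT1G76420) had 38.8 FPKM in apices and 0.0671 FPKM in leaves. LSH3 (AT2G31160), which is expressed in boundary cells, had 149.6 FPKM in apices and 3.19 FPKM in leaves. Leaf values on this list stayed at or below the 4.35 FPKM of LSH4. Each of these genes thus passed the filter through apices alone and could not have been called lower. LSH1 (AT5G28490), a relative of LSH3, had 3.43 FPKM in leaves, 123 FPKM in day-0 apices, 7.58 FPKM in apices 2 days after dexamethasone and 2.26 FPKM in inflorescences. These values are given side by side and were not compared.

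Genes of organ initiation and polarity followed the same direction, 17 of 23 members higher and 1 lower, with a median of 2.05. ANT (AT4G37750), an AP2-type factor that promotes growth of young organs, had 110.5 FPKM in apices and 2.24 FPKM in leaves. AIL6 (AT5G10510) had 31.8 FPKM in apices and 0.881 FPKM in leaves. MP (AT1G19850), the auxin response factor MONOPTEROS that starts flower primordia, had 136 FPKM in apices and 3.64 FPKM in leaves. All of them were at low level in leaves. DRNL (AT1G24590), an early marker of organ founder cells, was listed at 0 in leaves and had 12.6 FPKM in apices. FIL (AT2G45190), a YABBY gene of the abaxial side, had 133 FPKM in apices and 8.05 FPKM in leaves, whereas its relative YAB5 (AT2G26580) was the exception that was lower in apices, with 6.86 FPKM in apices and 30.5 FPKM in leaves. Within the YABBY genes of this list, then, the direction was not shared.

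Early floral regulators were also higher in apices. On the floral identity list 9 of 11 members were higher and 0 were lower, the median being 4.15. The median leaf level on this list was 0.429 FPKM, and members below 5 FPKM in leaves could not have been called lower. AP1 (AT1G69120) had 659 FPKM in apices and 0.429 FPKM in leaves. The apex plants carry the ap1-1 allele and the AP1-GR transgene, and fragments from either cannot be told apart from each other in this value. CAL (AT1G26310), whose cal-1 allele the same plants carry, was listed at 0 in leaves and had 16.8 FPKM in apices. LFY (AT5G61850), the factor that confers floral fate, had 45.2 FPKM in apices and 0.208 FPKM in leaves, and UFO (AT1G30950), its F-box partner, had 19.4 FPKM in apices and 0.0222 FPKM in leaves. AP3, AG, SEP1 and SEP3, which pattern floral organs, reached 5 FPKM in neither group and are not members. The members on this list were thus regulators of floral meristem fate as well as other organ identity genes. Among the organ identity genes that did pass, PI had 20 FPKM in apices and 0.123 FPKM in leaves.

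On the list of flowering time and inflorescence identity, 12 of 25 members were higher and 6 lower, with a median of 0.59. TFL1 (AT5G03840), which keeps an inflorescence indeterminate, had 82.4 FPKM in apices and 2.31 FPKM in leaves. FDP (AT2G17770), a bZIP gene related to FD, had 86 FPKM in apices and 0.383 FPKM in leaves, and FD itself, the partner of the florigen at the apex, had 159.9 FPKM in apices and 7.52 FPKM in leaves. AGL71 (AT5G51870), a MADS-box gene related to SOC1, had 122 FPKM in apices and 1.49 FPKM in leaves. These act in the apex and were at low level in leaves. The florigen genes showed the reverse: FT (AT1G65480), which is transcribed in leaf veins, had 0.713 FPKM in apices and 41.1 FPKM in leaves, and TSF (AT4G20370), its close relative, had 0.0571 FPKM in apices and 12.8 FPKM in leaves. TEM2 (AT1G68840), a repressor of FT, had 0.512 FPKM in apices and 125 FPKM in leaves, and SNZ (AT2G39250), an AP2-type repressor, had 0.36 FPKM in apices and 20.9 FPKM in leaves. SOC1, which integrates flowering signals, was nearly level, with 203 FPKM in apices and 207 FPKM in leaves, and so was SVP, with 81.9 FPKM in apices and 85.7 FPKM in leaves.

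Genes of DNA replication and of mitosis were higher in apices almost without exception. Of 21 replication and licensing members, 19 were higher and 0 were lower, the median being 2.2. Of 26 members of mitosis and cytokinesis, 25 were higher and 0 were lower, the median being 4.18. The median leaf level was 3.6 FPKM on the replication list and 1.17 FPKM on the mitosis list. Members below 5 FPKM in leaves passed the filter through apices alone and could not have been called lower. CYCB1;1 (AT4G37490), the cyclin of the G2-to-M transition, had 52.4 FPKM in apices and 0.577 FPKM in leaves, a 90.8-fold ratio. KN (AT1G08560), the syntaxin that builds the cell plate, had 153 FPKM in apices and 3.63 FPKM in leaves. MCM4 (AT2G16440), a subunit of the replicative helicase, had 42.7 FPKM in apices and 3.27 FPKM in leaves, and PCNA1 (AT1G07370), the sliding clamp, had 84.6 FPKM in apices and 5.15 FPKM in leaves. No leaf value in the mitosis list exceeded the 8.72 FPKM of MYB3R1. MYB3R1 (AT4G32730), a MYB factor of G2 genes, was the single mitosis member that was not called, with 17.9 FPKM in apices and 8.72 FPKM in leaves. For CDC20.1 (AT4G33270) and CDC20.2 (AT4G33260), activators of the anaphase-promoting complex, 48.5% and 49.7% of 50-base coding windows also occur in another gene, so the division of fragments between them is uncertain.

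The stretches below, read from the RefSeq genome TAIR10.1, are shown because they hold the short motifs that plant cell cycle genes are known to carry. Capitals mark the MSA core (CAACGG or TAACGG, bound by MYB3R factors) in CYCB1;1 and an E2F site (TTTCCCGC, TTTGGCGC, TTTCGCGC or TTTGCCGC) in MCM4, either of which may lie on the opposite strand, as it does in both of them. Both stretches read towards the gene. That of CYCB1;1 spans chr4:17624357-17624476 (minus strand) from position -168 to -49 before the annotated start, and that of MCM4 spans chr2:7130730-7130849 (minus strand) from -120 to -1.
CYCB1;1: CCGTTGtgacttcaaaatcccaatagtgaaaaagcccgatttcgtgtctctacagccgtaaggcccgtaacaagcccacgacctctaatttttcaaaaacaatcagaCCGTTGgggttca
MCM4: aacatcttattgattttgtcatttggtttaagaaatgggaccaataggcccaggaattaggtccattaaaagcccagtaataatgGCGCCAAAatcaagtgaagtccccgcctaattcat
In the 250 bases before the start, the MSA core was found in 15 of 26 mitosis members (57.7%) and in 10.8% of all 27443 nuclear protein-coding genes. An E2F site was found in 9 of 21 replication members (42.9%) and in 1.4% of all genes. No E2F site was found in the mitosis windows. A match is a description of the letters and was not tested as a site of binding.

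D-type cyclins, which admit cells into the cycle, were higher for 5 of 6 members. CYCD3;1 (AT4G34160) had 93 FPKM in apices and 3.9 FPKM in leaves. CYCD3;2 (AT5G67260) had 224 FPKM in apices and 15.4 FPKM in leaves, and CYCD3;3 (AT3G50070) had 96.4 FPKM in apices and 1.77 FPKM in leaves. The exception, CYCD2;1 (AT2G22490), was lower in apices, with 6.2 FPKM in apices and 21.8 FPKM in leaves. Inhibitors of cyclin-dependent kinases and regulators of the endocycle, in which DNA is copied without division, were divided: 5 higher, 5 lower and 3 called in neither direction among 13. That even split changed with the scaling: 8 were higher and 2 lower with the same sum, 7 and 2 with the upper quartile, and 5 and 3 with the trimmed mean. With a pseudocount of 5 it was 5 and 2. KRP3 (AT5G48820) had 66.3 FPKM in apices and 1.39 FPKM in leaves, and KRP5 (AT3G24810) had 68.3 FPKM in apices and 4.17 FPKM in leaves. CCS52B (AT5G13840), an activator of the anaphase-promoting complex, had 103 FPKM in apices and 3.19 FPKM in leaves. Against these, KRP1 (AT2G23430) had 1.92 FPKM in apices and 40.7 FPKM in leaves, and SMR1 (AT3G10525), of the SIAMESE family, had 4.89 FPKM in apices and 76.8 FPKM in leaves. SIM (AT5G04470), which promotes the endocycle in trichomes, had 5.22 FPKM in apices and 12.6 FPKM in leaves. Members of the KRP family therefore stood at opposite ends of the list, with KRP3 above and KRP1 below.

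Histone genes separated by class. The H3.1 proteins are deposited during replication and the H3.3 proteins outside it. Of 5 H3.1 genes 4 were higher and 0 were lower, the median being 3.56. Of 3 H3.3 genes none was called, with a median of 0.38. With the same sum 1 H3.3 gene was higher (median 0.89), as was 1 with the upper quartile (median 0.65). With the trimmed mean 0 were called, and 4 H3.1 genes were higher under each rescaling. AT5G65360 had 843 FPKM in apices and 48.2 FPKM in leaves. AT1G09200 had 818 FPKM in apices and 74 FPKM in leaves. AT5G10390 had 254 FPKM in apices and 20.7 FPKM in leaves, and AT3G27360 had 169.9 FPKM in apices and 13.2 FPKM in leaves. The last H3.1 gene, AT5G10400, was near level between the compared groups, with 36.5 FPKM in apices and 34.2 FPKM in leaves, and had 246 FPKM in wild-type inflorescences. Among H3.3 genes, AT4G40040 had 945 FPKM in apices and 728 FPKM in leaves, AT4G40030 had 805 FPKM in apices and 462 FPKM in leaves and AT5G10980 had 410.4 FPKM in apices and 439 FPKM in leaves. The summed level of the H3.1 list was 190.3 FPKM in leaves and 2121 FPKM in apices, and that of the H3.3 list 1629 and 2160.2 FPKM. Of the 50-base coding windows of the H3 genes on both lists, none is shared with another gene except for 2.76% in AT3G27360 and in AT5G10400.

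H2A genes were higher for 9 of 12 members, with a median of 1.74, and for 11 of 12 under each rescaling. HTA10 and HTA13 have 10.9% of coding windows shared with another gene and the others none. The replicative gene HTA13 (AT3G20670) had 418 FPKM in apices and 31.8 FPKM in leaves, and HTA10 had 588 FPKM in apices and 79.6 FPKM in leaves. The H2A.W gene HTA6 (AT5G59870), of heterochromatin, had 632 FPKM in apices and 62 FPKM in leaves, whereas HTA12 (AT5G02560), of the same class, had 39.2 FPKM in apices and 39.5 FPKM in leaves. The H2A.Z genes differed among themselves: HTA8 (AT2G38810) had 175 FPKM in apices and 9.77 FPKM in leaves, HTA11 (AT3G54560) had 375 FPKM in apices and 23.4 FPKM in leaves, and HTA9 (AT1G52740) was not called, with 369 FPKM in apices and 199.6 FPKM in leaves. H2A classes were thus not divided as H3 classes were. The linker histone HIS1-3 (AT2G18050), known as a drought-inducible variant, went the other way, with 4.38 FPKM in apices and 93 FPKM in leaves. It was the only linker histone read, since AT1G06760 and AT2G30620 were dropped from that list on a name mismatch.

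**Figure D2:**
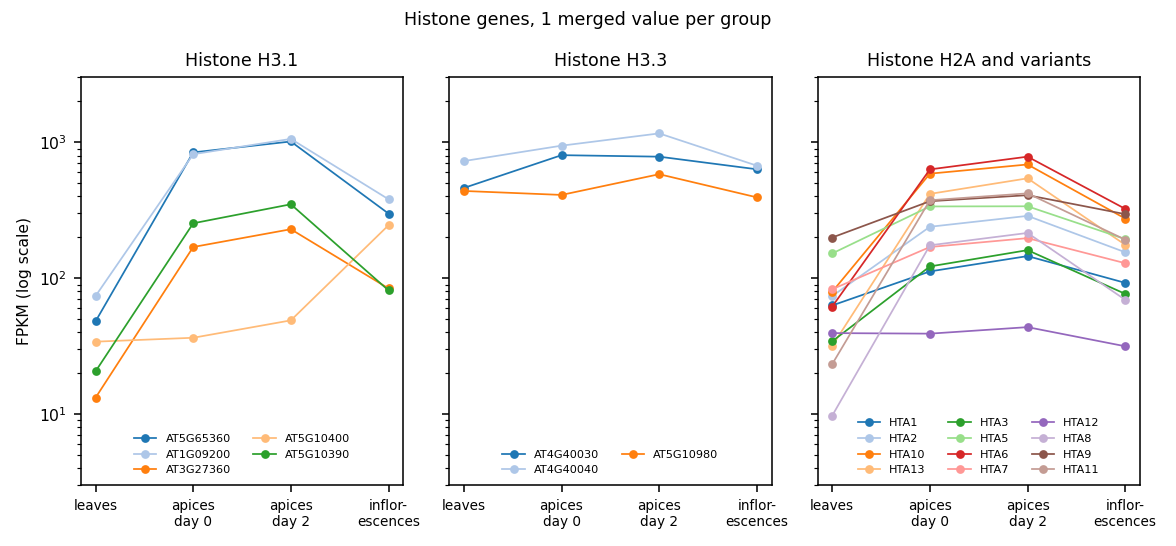
FPKM (log scale) of each histone H3.1, H3.3 and H2A gene in the 4 groups, from leaves on the left to inflorescences on the right; each point is 1 merged group value and lines only join the values of a gene. All H3.1 genes but AT5G10400 lie far lower in leaves than in day-0 apices, while the H3.3 genes stay between 410.4 and 945 FPKM in both.

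The following promoter stretches are shown because both carry the octamer CGCGGATC, a known element of plant histone promoters, in capitals (on the opposite strand in HTA13). That of AT5G65360 spans chr5:26120588-26120707 (minus strand, positions -126 to -7 before the start) and that of HTA13 spans chr3:7229270-7229389 (plus strand, positions -120 to -1), both in TAIR10.1.
AT5G65360: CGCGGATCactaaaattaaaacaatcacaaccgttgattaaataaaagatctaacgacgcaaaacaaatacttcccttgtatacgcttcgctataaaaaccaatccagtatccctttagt
HTA13: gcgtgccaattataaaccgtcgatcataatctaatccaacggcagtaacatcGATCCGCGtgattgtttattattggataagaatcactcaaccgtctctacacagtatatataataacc
The octamer was found in 3 of 5 H3.1 windows, 3 of 12 H2A windows and 1 of 3 H3.3 windows, and in 0.1% of all genes. Its presence was not restricted to the class with the greater difference.

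Genes of ribosome production were higher in apices. On the list of nucleolus and ribosome assembly all 12 members were higher, with a median of 1.72. NUC1 (AT1G48920), the major nucleolin, had 429.6 FPKM in apices and 171 FPKM in leaves. FIB2 (AT4G25630), a fibrillarin of ribosomal RNA methylation, had 140.5 FPKM in apices and 7.33 FPKM in leaves, and FIB1 (AT5G52470) had 332 FPKM in apices and 113 FPKM in leaves. CBF5 (AT3G57150), the pseudouridine synthase of ribosomal RNA, had 185 FPKM in apices and 21.9 FPKM in leaves. Cytosolic ribosomal proteins, taken by their RefSeq descriptions, were higher for 52 of 61 members and lower for 3, with a median of 1.86. The summed level of the genes taken in this way was 34330.3 FPKM in apices and 9161 FPKM in leaves. Other ribosomal protein genes, such as AT2G40205 below, are not among them. AT3G28500, an acidic P2 protein, had the greatest ratio, with 643 FPKM in apices and 11.2 FPKM in leaves. RPL18AA (AT1G29970) was among the exceptions, with 27.4 FPKM in apices and 88.9 FPKM in leaves, and 53.1% of its coding windows are shared with other genes. The most abundant nuclear transcript of apices, AT2G40205, encodes the very short ribosomal protein L41 and had 16885 FPKM in apices and 1382 FPKM in leaves; FPKM of such short transcripts depend strongly on the length used. Plastid ribosomal proteins were not mostly higher: 1 of 9 were higher and 5 lower, with a median of -1.01. Under rescaling 2 were higher and 1 lower with the same sum, and 1 was higher and 2 were lower with the upper quartile and with the trimmed mean.

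The promoter of AT2G37600, a ribosomal protein L36e gene with 312 FPKM in apices and 53.7 FPKM in leaves, is shown because it holds both elements known from plant ribosomal protein genes. Capitals mark a telo-box (AAACCCTA) and site II words (TGGGCC or TGGGCT), on either strand, in chr2:15775379-15775498 of TAIR10.1 (minus strand, positions -124 to -5 before the start).
AT2G37600: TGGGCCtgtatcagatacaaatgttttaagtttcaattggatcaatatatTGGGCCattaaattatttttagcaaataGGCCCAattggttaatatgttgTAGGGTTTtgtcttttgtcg
Site II words were found in 63.9% of the 61 ribosomal protein windows, 66.7% of the nucleolus windows and 19.2% of all genes. The telo-box was found in 19.7% of ribosomal protein windows and 4.5% of all genes. Over all called members, site II words were in 28.9% of windows of genes higher in apices and 16.0% of those lower, but also in 26.3% of members called in neither direction and 23.9% of all members.

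**Figure D3:**
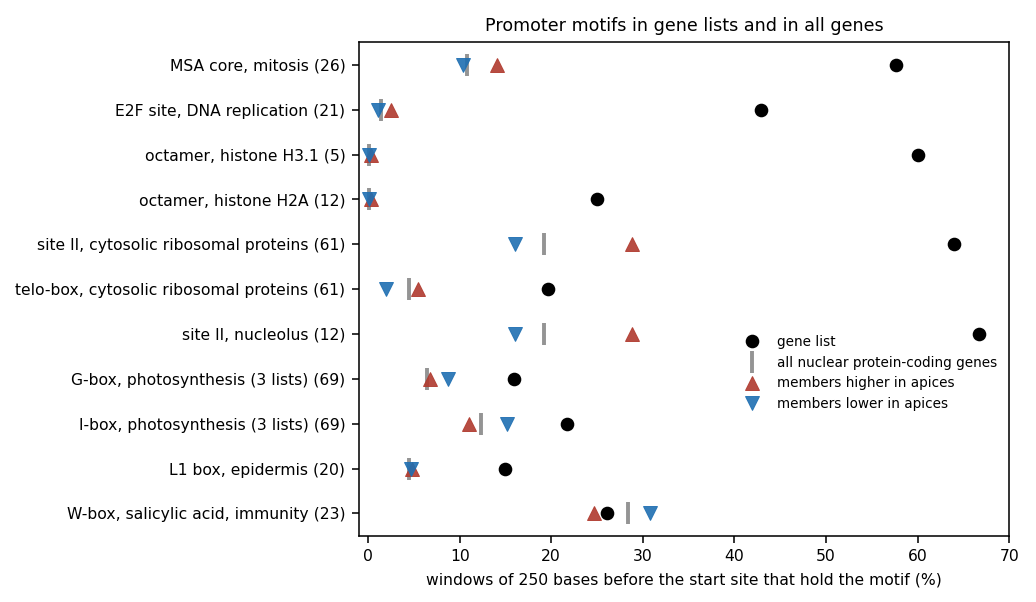
Percent of windows of 250 bases before the start site that hold each motif, for a gene list (black dots, number of windows in brackets), all nuclear protein-coding genes (grey bars) and members higher (red) or lower (blue) in apices. The MSA core in mitosis genes (57.7% against 10.8% of all genes) and site II in ribosomal protein genes stand far to the right of all genes, while the W-box in immunity genes does not.

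Silencing genes leaned to the apex side. On the list of small RNA pathways and DNA methylation 17 of 29 members were higher and 0 were lower, the median being 1.41. AGO4 (AT2G27040), the Argonaute of RNA-directed DNA methylation, had 149 FPKM in apices and 6.49 FPKM in leaves. VIM1 (AT1G57820), which recruits the maintenance methyltransferase, had 126 FPKM in apices and 4.23 FPKM in leaves. DDM1 (AT5G66750), the remodeller needed for methylation of heterochromatin, had 41.8 FPKM in apices and 1.83 FPKM in leaves. Replication-linked maintenance genes and the RNA-directed pathway were both represented among the higher members. AGO1 (AT1G48410), the main microRNA Argonaute, had 239.9 FPKM in apices and 56.2 FPKM in leaves, and AGO2 (AT1G31280), known from antiviral defence, was not called, with 11.1 FPKM in apices and 17.4 FPKM in leaves. DCL1 (AT1G01040), which processes microRNAs, was nearly level, with 16.9 FPKM in apices and 18.1 FPKM in leaves. Of Polycomb and Trithorax group genes, 6 of 18 were higher and 0 lower, the median being 0.70, beside the 21.0% of all members that were higher. The count was 12 with the same sum, 9 with the upper quartile, 8 with the trimmed mean and 3 with a pseudocount of 5, and 0 were lower in each. ULT1 (AT4G28190), a SAND-domain antagonist of Polycomb in meristems, was at the top, with 41.2 FPKM in apices and 2.37 FPKM in leaves. CLF (AT2G23380), a histone H3 lysine methyltransferase, had 17.9 FPKM in apices and 6.25 FPKM in leaves, and its relative SWN (AT4G02020) was not called, with 26.9 FPKM in apices and 22.3 FPKM in leaves.

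Growth regulators divided cleanly by family. Among 15 members the 9 higher were all GROWTH-REGULATING FACTOR genes or their coactivator, and the 6 lower were all CIN-type TCP genes, which promote the exit from division in leaves. GIF1 (AT5G28640), the GRF coactivator also called ANGUSTIFOLIA3, had 470.1 FPKM in apices and 0.773 FPKM in leaves. GRF5 (AT3G13960) had 76.3 FPKM in apices and 0.11 FPKM in leaves, a 694-fold ratio, and GRF6 (AT2G06200) had 34.1 FPKM in apices and 0.0487 FPKM in leaves. On the TCP side, TCP13 (AT3G02150) had 0.703 FPKM in apices and 45.6 FPKM in leaves, TCP4 (AT3G15030) had 2.39 FPKM in apices and 25.6 FPKM in leaves and TCP10 (AT2G31070) had 3.62 FPKM in apices and 30.7 FPKM in leaves. Wild-type inflorescences held intermediate levels of these TCP genes, for example 23.2 FPKM of TCP4 and 5.03 FPKM of TCP13.

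Auxin genes were mostly higher, 10 of 16, with 4 lower and a median of 2.17. PID (AT2G34650), a kinase of auxin transport, had 87.3 FPKM in apices and 6.74 FPKM in leaves. YUC4 (AT5G11320), an enzyme of auxin synthesis, had 7.88 FPKM in apices and 0.175 FPKM in leaves. Efflux carriers were among the lower members: PIN3 (AT1G70940) had 6.56 FPKM in apices and 66.7 FPKM in leaves, PIN4 (AT2G01420) had 1.74 FPKM in apices and 47.3 FPKM in leaves and PIN7 (AT1G23080) had 11.5 FPKM in apices and 41 FPKM in leaves. All 3 were well expressed in leaves.

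Cytokinin genes split evenly, 6 higher and 6 lower of 15, with a median of -0.47 that becomes 0.00 when both groups are given the same sum. LOG4 (AT3G53450), which activates cytokinin in the outer layer of the meristem, had 32 FPKM in apices and 0.749 FPKM in leaves. AHP6 (AT1G80100), an inhibitor of cytokinin signalling in organ primordia, was listed at 0 in leaves and had 56.1 FPKM in apices. IPT3 (AT3G63110), an enzyme of cytokinin synthesis in vascular tissue, had 0.0465 FPKM in apices and 19.3 FPKM in leaves. Of the response regulators that cytokinin induces, ARR16 (AT2G40670) was lower, with 2.98 FPKM in apices and 99.3 FPKM in leaves. ARR4 (AT1G10470) was also lower, with 48.4 FPKM in apices and 248 FPKM in leaves. ARR7 (AT1G19050) was not called, with 94.3 FPKM in apices and 62.9 FPKM in leaves. Among gibberellin genes 5 of 13 were higher and 2 lower. The catabolic genes differed: GA2OX4 (AT1G47990) was listed at 0 in leaves and had 13.9 FPKM in apices, GA2OX2 (AT1G30040) had 40.2 FPKM in apices and 8.87 FPKM in leaves, and GA2OX6 (AT1G02400) had 0.365 FPKM in apices and 39.5 FPKM in leaves. The growth repressors GAI (AT1G14920) and RGA (AT2G01570), DELLA proteins, were not called, GAI with 31.3 FPKM in apices and 28.2 FPKM in leaves and RGA with 70.5 FPKM in apices and 47.9 FPKM in leaves.

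**Figure D4:**
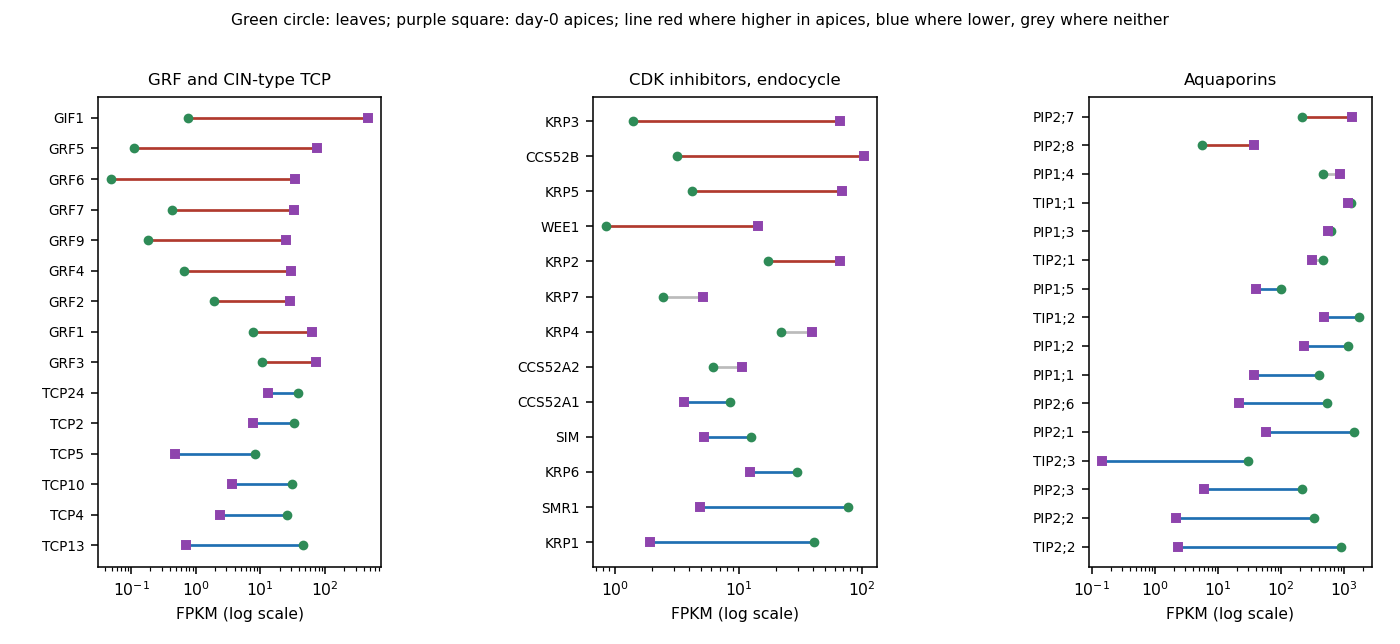
FPKM (log scale) in leaves (green circles) and day-0 apices (purple squares) for members of 3 gene lists, 1 merged value per group, each panel with its own range. GRF genes, KRP3 and PIP2;7 extend to the right in apices, and CIN-type TCP genes, KRP1 and PIP2;2 to the left.

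The outer layer had its own pattern. Of 20 members for epidermis identity and cuticle, 10 were higher and 3 lower, with a median of 0.94. PDF1 (AT2G42840), a marker of the outermost cell layer, had 1315 FPKM in apices and 3.24 FPKM in leaves. ATML1 (AT4G21750), a homeodomain factor of that layer, had 56.3 FPKM in apices and 15.3 FPKM in leaves, and its partner PDF2 (AT4G04890) had 87.1 FPKM in apices and 26.1 FPKM in leaves. DCR (AT5G23940), an acyltransferase of cutin formation, had 242 FPKM in apices and 2.44 FPKM in leaves. The lower members were genes of cutin and wax: ATT1 (AT4G00360), a cytochrome P450 of cutin, had 1.76 FPKM in apices and 165 FPKM in leaves, CUT1 (AT1G68530), an enzyme of wax synthesis, had 117 FPKM in apices and 449 FPKM in leaves, and CER5 (AT1G51500), a wax exporter, had 21.1 FPKM in apices and 98.8 FPKM in leaves. Cuticle genes were therefore found at both ends. The L1 box (TAAATGCA or TAAATGTA) was in 3 of the 20 windows and in 4.5% of all genes.

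Stomatal genes were called in both directions, 4 higher and 6 lower of 12, and 4 and 3 with a filter of 10 FPKM. Higher members included receptors of the lineage: ERL2 (AT5G07180) had 122 FPKM in apices and 1.28 FPKM in leaves, and ERL1 (AT5G62230) had 36.9 FPKM in apices and 0.243 FPKM in leaves. ER (AT2G26330), the receptor kinase gene whose mutant allele gives Landsberg erecta its name and which both groups carry, had 279 FPKM in apices and 16 FPKM in leaves. These receptors also act in stem and flower growth. Lower members included genes of the mature guard cell. KAT1 (AT5G46240), a potassium channel, had 0.302 FPKM in apices and 42.4 FPKM in leaves. MYB60 (AT1G08810) had 0.515 FPKM in apices and 9.26 FPKM in leaves, and SLAC1 (AT1G12480), an anion channel, had 0.861 FPKM in apices and 8.59 FPKM in leaves. SPCH, MUTE, EPF1 and EPF2, which mark stomatal precursors, reached 5 FPKM in neither group, so no division by stage can be read. On the trichome list 2 of 4 members were higher and none lower: GL2 (AT1G79840), a homeodomain factor of hair cells, had 6.07 FPKM in apices and 0.828 FPKM in leaves, and CPC (AT2G46410), a small MYB inhibitor of them, had 25.2 FPKM in apices and 6.12 FPKM in leaves. On the vascular list 2 of 10 were higher and 6 lower. PP2-A1 (AT4G19840), a phloem lectin, had 11.4 FPKM in apices and 754 FPKM in leaves, while PXY (AT5G61480), the receptor of the cambium, had 31.5 FPKM in apices and 7.68 FPKM in leaves.

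Photosynthesis genes were lower in apices. All 27 members for photosystem subunits and electron transport were lower in apices, with a median of -2.93. On the antenna list 21 of 22 were lower, with a median of -2.90, and on the Calvin cycle list 19 of 20, with a median of -2.86. The exceptions were LHCB1.3 (AT1G29930) and RBCS1A (AT1G67090), listed at 0 in leaves and at 1556 and 2493 FPKM in apices. They had 4113 and 8661 FPKM in inflorescences, and each is known as a leading member of its family in green tissue. A value listed at 0 beside such neighbours may be a failed estimate, so no direction is read for either gene. LHCB1.5 (AT2G34420) had 437 FPKM in apices and 6743 FPKM in leaves, and LHCB1.4 (AT2G34430) had 3.55 FPKM in apices and 2789 FPKM in leaves. In LHCB1.5 and in LHCB1.4, 23.0% of coding windows also occur in another gene, and in LHCB1.3 26.6% do. The division of fragments between such genes is uncertain, and so is the size of these differences. PSBR (AT1G79040), a photosystem II subunit, had 575 FPKM in apices and 7287 FPKM in leaves. RCA (AT2G39730), which reactivates Rubisco, had 259 FPKM in apices and 3862 FPKM in leaves. CP12-2 (AT3G62410), a small protein that links Calvin cycle enzymes, had 30.2 FPKM in apices and 1398 FPKM in leaves, a 46.3-fold ratio of leaves to apices. The summed antenna level was 39489 FPKM in leaves and 5449 FPKM in apices, that of the photosystem list 69826 and 8629 FPKM. The antenna sums count LHCB1.3 at 0 in leaves and at 1556 FPKM in apices. Apex tissue thus held measurable levels of photosynthesis transcripts, and the part of residual leaf tissue in them was not tested.

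The promoter of CP12-2 is shown because it holds an I-box (GATAAG), a known element of light-responsive genes, in capitals. It spans chr3:23090824-23090943 of TAIR10.1 (plus strand, positions -120 to -1 before the start).
CP12-2: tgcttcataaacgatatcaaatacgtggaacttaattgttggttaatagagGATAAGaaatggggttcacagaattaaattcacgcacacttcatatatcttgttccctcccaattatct
Over the antenna, photosystem and Calvin cycle lists together, the I-box was in 21.7% of 69 windows and in 12.3% of all genes. The G-box (CACGTG) was in 15.9% and 6.5%.

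Genes that build plastids differed less than the photosynthesis genes themselves. For chlorophyll synthesis 11 of 19 were lower and none higher, with a median of -1.13. Most of these calls depended on the scale, since 3 were lower with the same sum, 5 with the upper quartile, 6 with the trimmed mean and 1 by a 4-fold rule. CRD1 (AT3G56940), an oxidative cyclase of the pathway, had 250.3 FPKM in apices and 758 FPKM in leaves, and HEMA1 (AT1G58290), which starts it, had 80.5 FPKM in apices and 177 FPKM in leaves. PORA (AT5G54190), the reductase of dark-grown seedlings, had 0.928 FPKM in apices and 9.82 FPKM in leaves. The differences were smaller here than for the antenna proteins that bind the pigment. For plastid development, division, import and transcription 2 of 21 were higher and 7 lower, with a median of -0.38 that becomes 0.12 when both groups are given the same sum; 6 were then higher, 5 with the upper quartile and 4 with the trimmed mean. GLK1 (AT2G20570), the main activator of photosynthesis genes, had 6.38 FPKM in apices and 158 FPKM in leaves, and GNC (AT5G56860), a GATA factor of greening, had 1.68 FPKM in apices and 33.3 FPKM in leaves. In contrast, TOC34 (AT5G05000), a receptor of protein import into plastids, had 65.1 FPKM in apices and 27.8 FPKM in leaves, and TOC120 (AT3G16620) had 9.45 FPKM in apices and 3.87 FPKM in leaves.

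Photorespiration and carbon metabolism followed the photosynthesis genes. For photorespiration 10 of 11 were lower, with a median of -3.38. GOX1 (AT3G14420), glycolate oxidase, had 85.1 FPKM in apices and 1393 FPKM in leaves, and GLDP2 (AT2G26080), a subunit of glycine decarboxylase, was the member not called, with 134 FPKM in apices and 165 FPKM in leaves. For starch and sucrose 20 of 21 were lower and none higher, with a median of -2.20. SUC2 (AT1G22710), the loader of sucrose into phloem, had 23.4 FPKM in apices and 378 FPKM in leaves. SWEET11 (AT3G48740), a sucrose exporter, had 12.1 FPKM in apices and 318 FPKM in leaves. SPS4F (AT4G10120), a sucrose-phosphate synthase, had 0.768 FPKM in apices and 64.1 FPKM in leaves. Genes of synthesis, of breakdown and of export were each among the lower members. For nitrate assimilation and iron 10 of 13 were lower and 1 higher. NIA2 (AT1G37130), the main nitrate reductase, had 9.41 FPKM in apices and 997 FPKM in leaves, NRT2.5 (AT1G12940), a nitrate transporter of starved plants, had 0.0994 FPKM in apices and 12.5 FPKM in leaves, and the ferritin FER3 (AT3G56090) was the higher member, with 169 FPKM in apices and 81.9 FPKM in leaves.

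**Figure D5:**
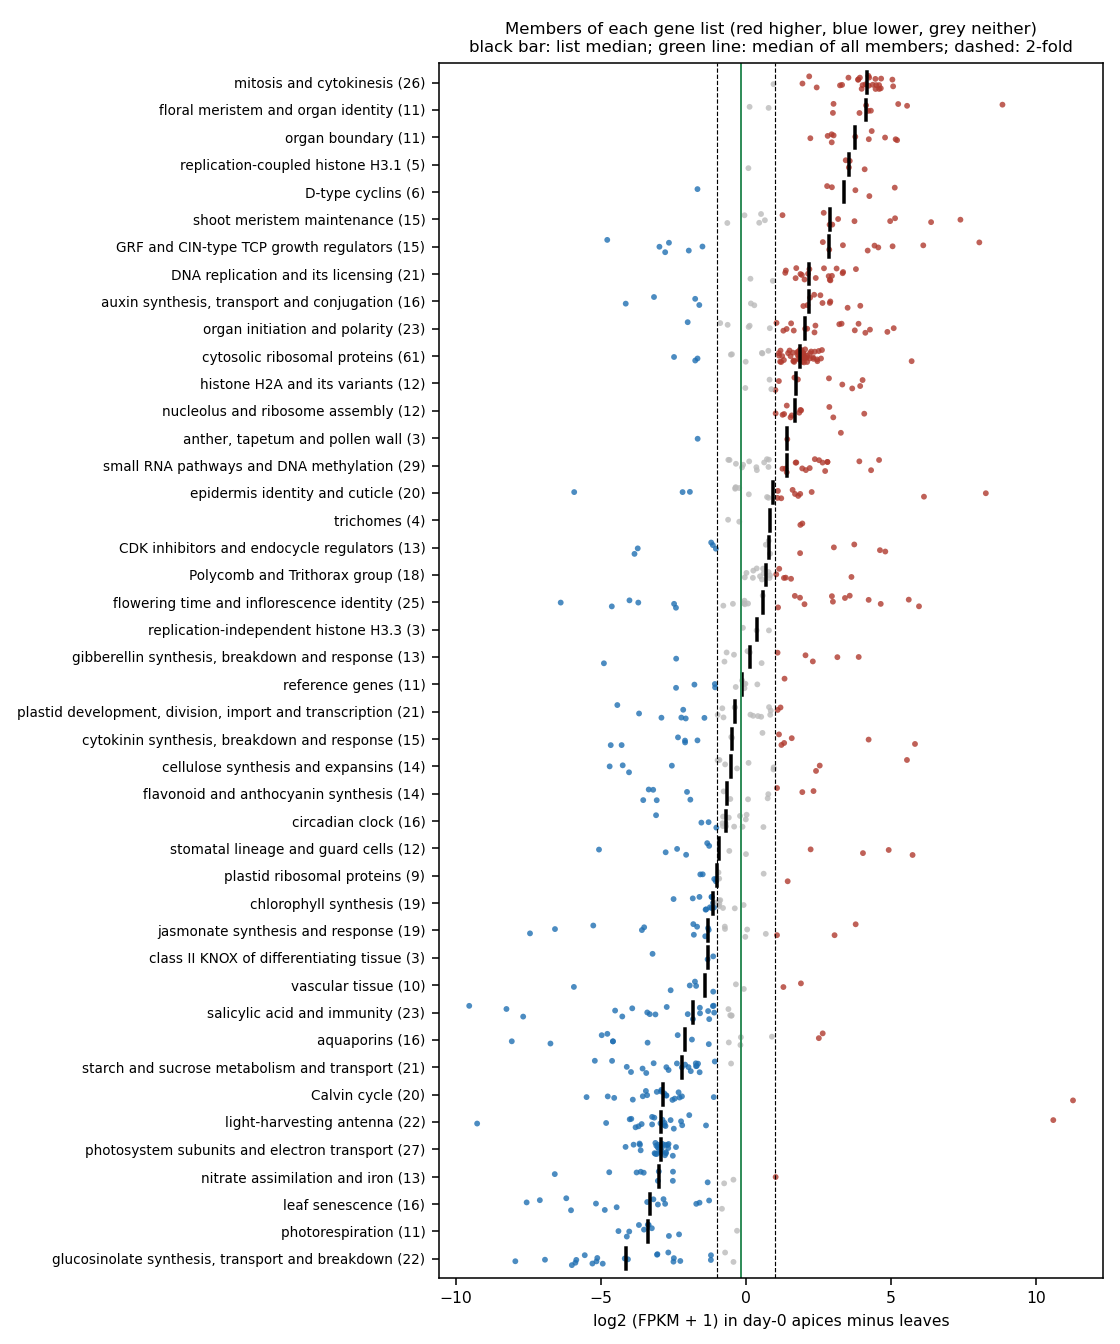
Log2 of (FPKM + 1) in day-0 apices minus leaves for the members of each gene list (number of members in brackets), sorted by the list median (black bar); the green line is the median of all members and dashed lines mark 2-fold. Mitosis (median 4.18) lies at the top and glucosinolates (median -4.12) at the bottom; the isolated red points above 10 are RBCS1A and LHCB1.3, listed at 0 in leaves, for which no direction is read.

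Immunity genes were lower in apices. Of 23 members of salicylic acid signalling and immunity, 19 were lower and none higher, with a median of -1.82. The count of lower members was 14 with the same sum, 15 with the upper quartile and 16 with the trimmed mean. It was 16 with a pseudocount of 5 and 10 by a 4-fold rule, and none was higher in each. PR1 (AT2G14610), the standard marker of salicylic acid response, had 0.225 FPKM in apices and 249 FPKM in leaves, and PR2 (AT3G57260), a glucanase, had 1.33 FPKM in apices and 1726 FPKM in leaves. PR5 (AT1G75040) had 1.87 FPKM in apices and 872 FPKM in leaves. ICS1 (AT1G74710), which makes the hormone, had 4.46 FPKM in apices and 46.3 FPKM in leaves, and EDS5 (AT4G39030), which exports its precursor from plastids, had 0.0717 FPKM in apices and 23.3 FPKM in leaves. All 3 PR genes were near 0 in apices and among the abundant transcripts of leaves. WRKY70 (AT3G56400) was not called, with 196 FPKM in apices and 296 FPKM in leaves. The W-box (TTGACC or TTGACT) was in 26.1% of these windows and in 28.4% of all genes, so its share here was no higher than in all genes.

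Senescence genes matched that direction, 15 of 16 lower and none higher, with a median of -3.29. The median apex level on this list was 3.04 FPKM, and members below 5 FPKM in apices could not have been called higher. SAG13 (AT2G29350) had 0.022 FPKM in apices and 139 FPKM in leaves. SAG21 (AT4G02380) had 19.3 FPKM in apices and 3804 FPKM in leaves, and SEN1 (AT4G35770) had 12.2 FPKM in apices and 959 FPKM in leaves. ORE1 (AT5G39610), a NAC factor that promotes leaf ageing, had 0.969 FPKM in apices and 127 FPKM in leaves. SAG12, a marker of late senescence, reached 5 FPKM in neither group. Age and defence state of the leaves cannot be told apart from organ identity in these values.

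Jasmonate genes held a contrast. On that list 11 of 19 were lower and 3 higher, with a median of -1.30. With the same sum 8 were lower and 4 higher, and by a 4-fold rule 5 were lower and 2 higher. LOX2 (AT3G45140), the lipoxygenase of jasmonate synthesis in leaves, had 26.4 FPKM in apices and 1045 FPKM in leaves. AOC2 (AT3G25770), an allene oxide cyclase, had 1.45 FPKM in apices and 423 FPKM in leaves, and AOC1 (AT3G25760) had 0.304 FPKM in apices and 123 FPKM in leaves. The vegetative storage proteins, which jasmonate is known to induce, were the reverse: VSP1 (AT5G24780) had 1010.2 FPKM in apices and 72.1 FPKM in leaves, and VSP2 (AT5G24770) had 1143 FPKM in apices and 136 FPKM in leaves. In inflorescences VSP1 had 1345 FPKM and VSP2 224 FPKM. MYC2 (AT1G32640), the factor that activates jasmonate responses, was level, with 198 FPKM in apices and 200.1 FPKM in leaves.

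Glucosinolate genes had the lowest median of all lists with at least 3 members, -4.12, with 20 of 22 members lower and none higher. The median apex level on this list was 3.77 FPKM, and members below 5 FPKM in apices could not have been called higher. BCAT4 (AT3G19710), which starts side-chain elongation, had 0.229 FPKM in apices and 302 FPKM in leaves. CYP79F1 (AT1G16410), the first enzyme of the aliphatic core, had 0.0804 FPKM in apices and 130.0 FPKM in leaves, and MYB28 (AT5G61420), the activator of that branch, had 3.33 FPKM in apices and 77 FPKM in leaves. CYP79B3 (AT2G22330), of the indolic branch, had 0.334 FPKM in apices and 84 FPKM in leaves. Both branches were lower. The genes for breakdown were less uniform: TGG1 (AT5G26000), a myrosinase, had 368 FPKM in apices and 847 FPKM in leaves, TGG2 (AT5G25980) had 3.76 FPKM in apices and 278 FPKM in leaves, and ESP (AT1G54040), which directs the products to nitriles, was not called, with 486 FPKM in apices and 652 FPKM in leaves. Flavonoid genes were called in both directions, 3 higher and 6 lower of 14, with 5 higher under the same sum. FLS1 (AT5G08640), of flavonol synthesis, had 113 FPKM in apices and 28.4 FPKM in leaves, whereas LDOX (AT4G22880), of anthocyanin synthesis, had 8.19 FPKM in apices and 92.3 FPKM in leaves, and DFR (AT5G42800), of the same branch, had 7.35 FPKM in apices and 95.7 FPKM in leaves. PAP1 (AT1G56650), the MYB activator of anthocyanins, had 0.33 FPKM in apices and 10.2 FPKM in leaves. The shared first enzyme CHS (AT5G13930) was not called, with 392 FPKM in apices and 567 FPKM in leaves.

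Water channels and wall-loosening proteins differed in direction within their families. Of 16 aquaporins 2 were higher and 10 lower, with a median of -2.10. PIP2;7 (AT4G35100) had 1367 FPKM in apices and 216 FPKM in leaves, and PIP2;8 (AT2G16850) had 37.4 FPKM in apices and 5.69 FPKM in leaves. Against them, PIP2;2 (AT2G37170) had 2.19 FPKM in apices and 338 FPKM in leaves and the vacuolar TIP2;2 (AT4G17340) had 2.35 FPKM in apices and 895 FPKM in leaves. In PIP2;2, 27.1% of coding windows also occur in another gene, so the size of its difference is uncertain. Of 14 cellulose synthase and expansin members 3 were higher and 4 lower, with 5 higher under each rescaling. As reported, these counts were near the shares over all members, 21.0% higher and 29.6% lower. EXPA15 (AT2G03090) had 205 FPKM in apices and 3.37 FPKM in leaves, while EXPA1 (AT1G69530) had 7.17 FPKM in apices and 132 FPKM in leaves and EXPA11 (AT1G20190) had 0.224 FPKM in apices and 22.2 FPKM in leaves. The primary-wall cellulose synthase CESA1 (AT4G32410) was not called, with 69.1 FPKM in apices and 130.5 FPKM in leaves. CESA4, CESA7 and CESA8, of the secondary wall, reached 5 FPKM in neither group.

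Some lists served as references. Of 16 circadian clock members 4 were lower and none higher, with a median of -0.68 and with 1 higher and 2 lower under the same sum; the time of day of harvest is not given in the sources used here. TOC1 (AT5G61380) had 101 FPKM in apices and 99.3 FPKM in leaves, and GRP7 (AT2G21660), a clock-controlled RNA-binding protein, had 3575 FPKM in apices and 3568 FPKM in leaves. Commonly used reference genes were not all level: 1 of 11 were higher and 4 lower, with a median of -0.12 that becomes 0.38 with the same sum, 0.15 with the upper quartile and 0.07 with the trimmed mean, 2 being lower under each. PP2AA3 (AT1G13320) had 40.3 FPKM in apices and 40.6 FPKM in leaves, and SAND (AT2G28390) had 31.5 FPKM in apices and 32.5 FPKM in leaves. ACT2 (AT3G18780), an actin of vegetative tissue, had 121 FPKM in apices and 645 FPKM in leaves, and UBQ10 (AT4G05320) had 410.4 FPKM in apices and 1401 FPKM in leaves. None of the 5 root or the 5 seed storage markers reached 5 FPKM in either group. Of 14 anther, tapetum and pollen wall markers, 3 were members: TPD1 (AT4G24972) had 12 FPKM in apices and 40.1 FPKM in leaves, EMS1 (AT5G07280) had 11.6 FPKM in apices and 0.292 FPKM in leaves and LAP6 had 19 FPKM in apices and 6.39 FPKM in leaves. AMS, DYT1 and MS1, which define the tapetum, were not members. On the meristem list 10 of 15 members were higher in apices, and most photosynthesis members were higher in leaves. Since the lists were chosen with earlier results of these data known, they are no independent check of the tissue labels.

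Several of the greatest differences lay outside the gene lists. LTP6 (AT3G08770), a lipid transfer protein, had 3966 FPKM in apices and 7.14 FPKM in leaves. FTM1 (AT1G43800), described as a stearoyl-acyl-carrier-protein desaturase, had 317 FPKM in apices and 0.0647 FPKM in leaves, and 125 FPKM at day 2. CYP78A5 (AT1G13710), also called KLUH, a cytochrome P450 that prolongs organ growth, had 131 FPKM in apices and 0.0955 FPKM in leaves. SPL8 (AT1G02065) had 91.3 FPKM in apices and 0.0815 FPKM in leaves. FTM1 was near 0 in leaves and at 2.8 FPKM in inflorescences, so its high level lay in the apices of this line. At the other end ECS1 (AT1G31580) had 0.821 FPKM in apices and 2848 FPKM in leaves, PCR1 (AT1G14880) had 1.13 FPKM in apices and 1418 FPKM in leaves and GSTF7 (AT1G02920), a glutathione transferase, had 0.399 FPKM in apices and 611 FPKM in leaves. ESM1 (AT3G14210), which modifies glucosinolate breakdown, had 0.931 FPKM in apices and 699 FPKM in leaves. The most abundant leaf transcript was MT1A (AT1G07600), a metallothionein, with 1147 FPKM in apices and 29338 FPKM in leaves.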

How the data were processed

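Stranded, poly(A)-selected libraries were sequenced for 50 cycles, per the labels' protocols, in 3 libraries for each of 4 groups. The submitters' processing notes name build TAIR10 and, without roles, Cufflinks 2.1.1, TopHat2 2.0.10, Bowtie2 2.1.0 and CASAVA 1.8.2. The authors deposited a table with 1 FPKM value per gene and group; since its header names no unit, FPKM was inferred from the range of the values and the use of Cufflinks. How libraries were merged or groups scaled, and with which annotation and options, is not given in the sources used here.

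Rows of the 567 repeated identifiers were summed, and genes with at least 5 FPKM in apices or leaves were kept. The difference was log2 of (FPKM + 1) in apices minus leaves, which understates the difference of low genes, and a call needed at least 1. Sets were described by counts and medians only (Python 3.11.15, pandas 2.3.3, numpy 2.4.6, matplotlib 3.10.9). The members and gene lists were chosen with earlier results of these data known, so no list is independent evidence. List identifiers were checked against RefSeq names, and 9 were dropped on a mismatch. The lists then held 810 different identifiers, among them the ribosomal protein genes taken by their RefSeq descriptions. Of the members, 17161 were found in the RefSeq annotation of TAIR10.1, which gave symbols, transcript lengths and promoter windows of 250 bases. The authors' build carries another name, so coordinates come from that reference and not from the table.

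Named genes were AP1 and CAL, all histone genes of the lists, and from each other list its first 4 members, its 4 greatest differences in each direction and members against the main direction. Added to these were the 15 greatest differences per direction among nuclear protein-coding genes, the 5 most abundant genes listed at 0 in the other group, the 10 most abundant genes per group and genes near the threshold. WUS, CLV3, DRNL, FIL, LSH4, PI, SVP, DCL1, ARR7, GAI, RGA, MYC2 and CDC20.1 fall outside that rule and were chosen after their values were seen, as were genes named only as not being members. The rule allows more genes than are described, and 1 result is not reported here. Relative depth was read from the steps between the lowest values of genes with 1 transcript. The foreseen test on per-library values was not used, because the table holds merged groups. The calling rule was tested on simulated data. Alternatives were another pseudocount, filter, scaling, gene set or fold.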

Additional observations from a re-analysis of the deposited data

How the results depend on the processing

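No paired analysis was possible because the libraries of a group are merged in the deposited values, and no library could be left out for the same reason. As reported, 3622 genes were higher and 5116 lower, 41.5% of calls were higher, and in 30 gene lists over 50% of members were called in 1 direction. The share of calls that were higher was 38.6% with a pseudocount of 5, 40.05% with a filter of 10 FPKM, 59.3% with the same sum, 51.3% with the same upper quartile, 48.3% with the trimmed mean of log ratios and 35.6% with a 4-fold rule. The same sum gave 5434 genes higher and 3722 lower, and the 4-fold rule gave 1583 higher and 2862 lower, with 18 lists called in 1 direction. The cause was not tested, beyond the rescaled values and the stricter fold themselves. A pseudocount of 0.1, no filter, nuclear protein-coding genes, repeated identifiers left out and, added after the data were seen, genes listed at 0 left out gave shares between 41.5% and 41.9%. Over all list members and other genes the naming rule allows, described in the text or not, no call changed direction; 42 calls were lost and 41 gained with the same sum, and 179 were lost with the 4-fold rule. The stomatal list's median was -0.91 as reported and 0.01 with the filter of 10 FPKM. Depth limits little here, since 5 FPKM in a transcript of median length rests on about 535 fragments or more, whereas the spread between libraries is unknown and limits every value.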

Other observations

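Gene families outside the lists were grouped by their RefSeq descriptions, and those with at least 15 members were sorted by median log2 difference; they were picked after their values were seen, so the counts are descriptions. TIR-NBS-LRR disease resistance genes, the receptors that recognise pathogen effectors, were lower in apices for 34 of 43 members and higher for 0, with a median of -2.37. Their summed level was 917 FPKM in leaves and 186 FPKM in apices. Polyketide cyclase and lipid transport proteins were lower for 14 of 18 members, with a median of -2.66, and EamA-like transporters related to nodulin MtN21 were lower for 19 of 27. On the apex side, AP2/B3-like transcription factors were higher for 13 of 18 members and lower for 3, with a median of 2.79. Small nuclear ribonucleoprotein genes, of the splicing machinery, were higher for 10 of 22 and lower for 1. Pentatricopeptide repeat genes, which process organelle RNA, were higher for 18 of 68 members and lower for 3, with a median of 0.56. Beside these counts, 21.0% of all members were higher and 29.6% lower.

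Organelle-encoded transcripts differed between the organelles. Of 46 plastid-encoded members 43 were lower in apices and 1 was higher, with a median of -2.76. Of 8 mitochondrial members 0 were lower and 3 higher, with a median of 0.11. The libraries were selected for poly(A) tails, which most organelle transcripts lack, so these values hold only the part of them that was captured.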
